A study of Homo sapiens with 9 samples.

Results

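Transcripts of 36 human genes that charge tRNAs with amino acids, or that make and import those amino acids, were followed through heat shock and recovery in HEK293T cells. The 36 were taken from a list of names drawn up with earlier results of these data known, and all 36 were found among the 60664 genes of the count table. Of the 36, 19 are cytosolic aminoacyl-tRNA synthetase genes, 10 listed as class I (with the bifunctional EPRS1 among them) and 9 as class II. The others are 6 enzymes of serine, glycine and one-carbon metabolism, 2 of proline synthesis, 2 transaminases with cystathionase (3 genes), and 6 transporter genes. HEK293T is a transformed human embryonic kidney line that carries the SV40 large T antigen. NC cells, labelled wild-type, stayed untreated at 37 °C. H1 cells were kept at 43 °C for 1 h. H1R1, H1R6 and H1R18 cells had the same 1 h at 43 °C, followed by 1, 6 or 18 h of recovery at 37 °C. NC, H1, H1R1 and H1R6 have 2 RNA-seq libraries each and H1R18 has 1, which makes 9 libraries of total RNA depleted of ribosomal RNA. The study turned to RNA-seq to look for what lies behind the collapse of intermediate filaments that it saw in heat-stressed cells. Nothing in the sources says whether the 2 libraries of a condition are separate cultures, so p-values measure only the spread between these libraries.

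Aminoacyl-tRNA synthetases join each amino acid to its tRNA, and the charged tRNAs feed the ribosome. Class I and class II enzymes differ in the fold of their catalytic site, and several cytosolic synthetases sit together in a multi-synthetase complex. The serine pathway runs from a glycolytic intermediate through PHGDH, PSAT1 and PSPH to serine, which SHMT1 and SHMT2 split into glycine and a one-carbon unit. Many of these genes are known targets of ATF4, a transcription factor that cells make in greater amounts when uncharged tRNA or unfolded protein leads to phosphorylation of the initiation factor eIF2α. In bulk RNA, a lower level can come from fewer cells with the transcript or from less of it per cell, and these cannot be told apart here.

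The libraries held 3814195 to 6221613 counts, and the 36 genes together took 1.15% and 1.20% of them in the NC libraries, 1.14% and 1.15% in H1, 0.917% and 1.05% in H1R1, 0.888% and 0.841% in H1R6 and 0.845% in H1R18. Levels are given as CPM, the counts of a gene as a share of the library's total after TMM scaling, which evens out the bulk of genes between libraries. The labels were checked on DNAJB1, a heat-inducible chaperone, which was at 1910 and 2096 CPM at H1 and 3684 and 3825 CPM at H1R1, against 69.5 and 80.4 CPM in NC. Of 4 kidney epithelial markers only PAX2 was above the filter, at 6.26 to 14.6 CPM. PAX2 was called lower at H1R1 and H1R6, and its part in the results was not tested. The summed levels were at most 1.41 CPM for 5 hepatocyte markers, 3.89 to 8.35 CPM for 4 blood markers and 44.7 to 65.05 CPM for 5 endothelial and fibroblast markers. The libraries of H1R1 differed from each other for the genes described here. Of the 34 whose log2 CPM averaged 5 or more, 30 were lower in replicate 1 of H1R1 than in replicate 2 (median log2 ratio -0.17), while 53.0% of all 7118 genes at that level were. In NC, H1 and H1R6 the same comparison gave 23, 23 and 8 of 34, beside 48.5%, 55.1% and 51.0% of all genes at that level. Which library of a pair is the unusual one cannot be told from the pair alone. The counts of genes called at H1R1 are therefore also given without either H1R1 library.

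VARS1, the valyl-tRNA synthetase, had 0 to 37 counts per library and no level could be read from it. Its highest counts were 37 in replicate 2 of H1R1 and 16 in replicate 2 of H1R6. It lies on chromosome 6 from 31777518 to 31795752 (GRCh38), and of the 78 other genes within 250 kb, 76 had at most 10 counts in every library. TUBB and HSPA1A, the tubulin and HSP70 genes that lie on the same chromosome at 30717435 and 31815543, had at most 4 and 3 counts. CARS1, the cysteinyl-tRNA synthetase, had 26 to 96 counts per library, and 1 of the 24 genes within 250 kb of it reached 100 counts in any library. The other 34 genes had more than 100 counts in every library.

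At H1 the 36 genes were close to their NC levels, and most of them were called lower at some time of recovery. A gene was called where edgeR's quasi-likelihood test gave a Benjamini-Hochberg adjusted p under 0.05 over all 21139 genes tested. At H1 against NC, 1 of 36 rose and 0 fell, where 3.43% of all tested genes rose and 1.77% fell. At an unadjusted p under 0.05, 2 of the 36 were lower at H1, and DESeq2 also called 0 lower. At H1R1, 3 rose and 18 fell, where 10.7% and 9.53% of all tested genes did. Without replicate 1 of H1R1 the 18 became 9, and without replicate 2 they became 21. The calls lost without replicate 1 were those of EPRS1, GARS1, LARS1, PSPH, PYCR1, SHMT2, SLC38A1, SLC3A2 and SLC7A1, and of HARS1 among those that rose. At H1R6, 1 of the 36 rose and 25 fell (69.4%), where 3.0% of all tested genes rose and 4.03% fell. At H1R18, 0 rose and 21 fell (58.3%), where 4.58% and 6.43% of all tested genes did. DESeq2 likewise called 0 higher at H1R18, and 1 was higher at an unadjusted p under 0.05. With 1 library left out, the calls of CARS1, LARS1, NARS1, SLC38A2, WARS1 and YARS1 at H1R6 and of IARS1 at H1R18 were also lost in some cases. H1R18 rests on 1 library, which the fit assumes to vary like the other conditions.

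A larger share was called among highly expressed genes, a set with a lower limit that was not matched to the levels of the 36. Of all 7118 genes whose log2 CPM averaged 5 or more, which hold 34 of the 36, 22.4% rose and 12.9% fell at H1R1, 6.81% rose and 9.20% fell at H1R6, and 8.77% rose and 13.9% fell at H1R18. The median log2 fold change of the 35 genes other than VARS1 was -0.04 at H1, -0.26 at H1R1, -0.46 at H1R6 and -0.54 at H1R18. That of all tested genes lay between -0.03 and -0.01 in the same comparisons. The 4 comparisons share the NC libraries and are not independent of each other.

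**Figure D1:**
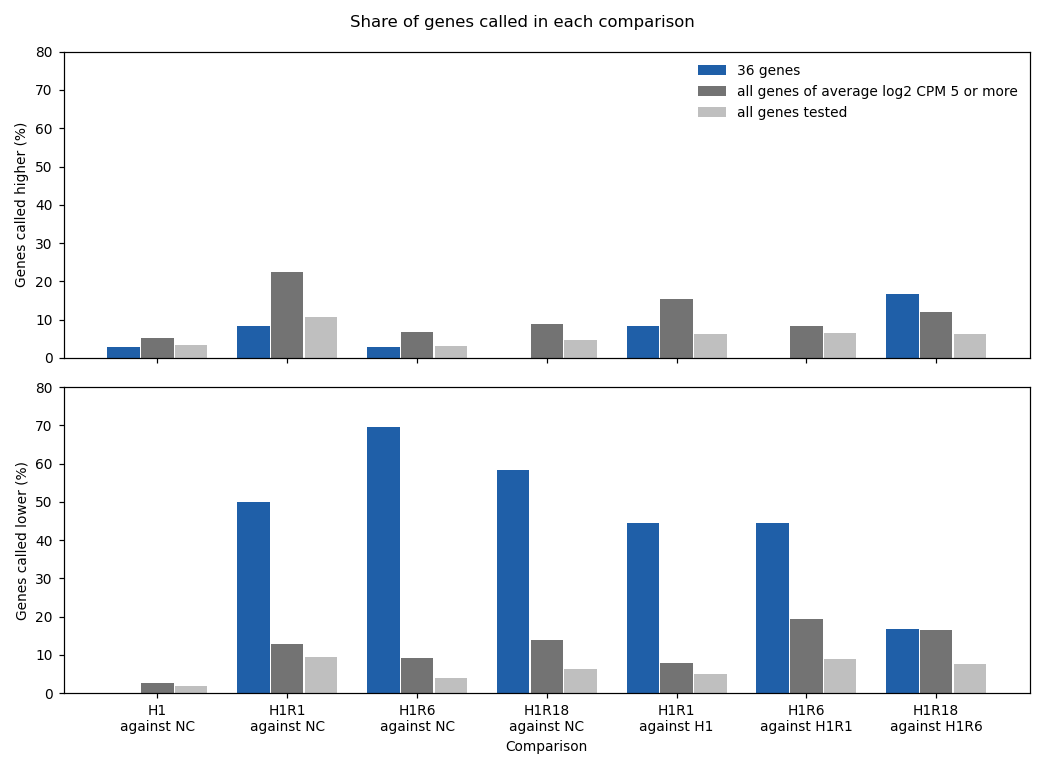
Share of genes called higher (top) and lower (bottom) in each comparison, in percent, for the 36 genes (blue), all genes whose log2 CPM averaged 5 or more (dark grey) and all genes tested (light grey). At H1R6 against NC, 69.4% of the 36 were called lower, beside 9.20% of genes at or above that limit and 4.03% of all genes.

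Ordered by time, 14 of the 36 genes were called lower at all 3 recovery times: CTH, EPRS1, GARS1, GPT2, MTHFD2, PHGDH, PSAT1, PSPH, SHMT2, SLC1A5, SLC38A1, SLC3A2, SLC7A1 and WARS1. A further 4, AARS1, LARS1, SARS1 and PYCR1, were called lower at H1R1 and H1R6 only, and 5, IARS1, MARS1, NARS1, YARS1 and SLC7A5, at H1R6 and H1R18 only. CARS1 was called lower at H1R6 alone and TARS1 at H1R18 alone. RARS1, HARS1 and SLC38A2 were called higher at some time. The 8 called in no comparison with NC were ALDH18A1, FARSA, FARSB, GOT1, KARS1, QARS1, SHMT1 and VARS1.

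**Figure D2:**
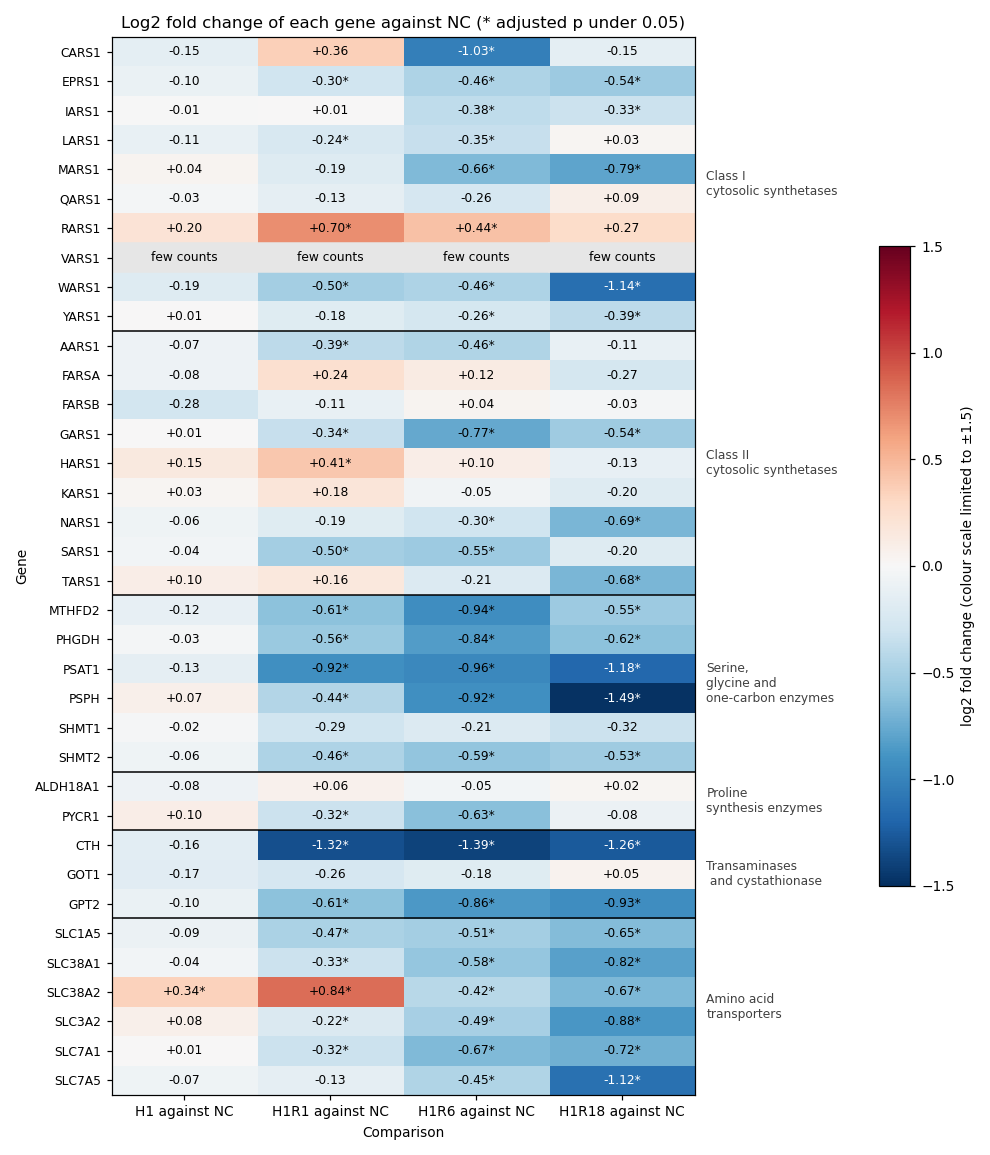
Log2 fold change of each gene (rows, grouped by role) at H1, H1R1, H1R6 and H1R18 against NC (columns), with blue for lower and red for higher than NC and an asterisk for an adjusted p under 0.05. The VARS1 cells are grey and marked for their few counts. The H1 column is pale, with an asterisk only for SLC38A2 at 0.34, and the darkest cells are CTH at the 3 recovery times and PSPH at H1R18.

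Several of these genes share a sequence near their start that ATF4 with a C/EBP partner is known to bind, and 5 holders with large changes are shown, with GOT1 as a holder that was not called. The letters TGATGNAA were searched on both strands in windows of 250 bases before to 50 bases after the gene start (RefSeq, GRCh38.p14), which were at hand for 29 of the 36. YARS1, VARS1, GPT2, SHMT2, PYCR1, PSPH and LARS1 had no window. Capitals mark the match, written 5′ to 3′ on the gene's own strand:
GARS1, chr7:30594834-30594863, plus strand, match from position -33 relative to the start: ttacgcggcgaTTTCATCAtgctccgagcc
MARS1, chr12:57488053-57488082, plus strand, match from position -4 relative to the start: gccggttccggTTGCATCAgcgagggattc
SLC3A2, chr11:62881725-62881748, plus strand, match from position 38 relative to the start: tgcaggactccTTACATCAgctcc
SLC7A1, chr13:29595663-29595692, minus strand, match from position 8 relative to the start: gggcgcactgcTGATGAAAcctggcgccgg
SLC38A1, chr12:46266502-46266531, minus strand, match from position -4 relative to the start: tcagacccgaaTGATGAAAagggatcagct
GOT1, chr10:99430804-99430833, minus strand, match from position -198 relative to the start: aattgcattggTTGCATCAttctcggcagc

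The core was present in 12 of the 29 genes (41.4%) and in 4.46% of 27305 genes with a window. The other holders were AARS1, CARS1, IARS1, NARS1, SLC1A5 and TARS1. Of the 12 holders 10 fell at H1R6, and of the 17 genes with a window and no match 9 fell and 1 rose. The median log2 fold change at H1R6 was -0.50 in holders (-1.028 to -0.185) and -0.42 in the others (-1.39 to 0.444). The difference between them was not tested. An E-box, CACGTG, was present in ALDH18A1, IARS1, SLC1A5 and SLC7A5, 4 of the 29 (13.8%), and in 8.77% of all genes with a window. A heat shock element, GAANNTTCNNGAA or its alternate TTC, GAA, TTC form, was found in 0 of the 29 and in 0.608% of all genes. A match describes these letters only and does not show that a factor was bound.

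The serine, glycine and one-carbon enzymes fell together during recovery. Of the 6, 5 fell at each of the 3 recovery times and none was called at H1. Their summed level was at 95.1% and 95.2% of the NC mean in the H1 libraries, 56.4% and 75.2% in H1R1, 60.5% and 53.1% in H1R6 and 61.0% in H1R18. PSAT1, the transaminase in the middle of the serine pathway, was at 431 and 421 CPM in the NC libraries, 389 and 388 in H1, 179 and 272 in H1R1, 248 and 189.7 in H1R6 and 188 in H1R18. All 5 recovery libraries lay below both NC libraries. PSAT1 fell at H1R1 (log2 fold change -0.92, SE 0.12, adjusted p = 5.93e-07) and at H1R18 (log2 fold change -1.18, SE 0.15, adjusted p = 1.9e-06). Per kilobase of merged exon PSAT1 had the highest level of the 36 in NC, at 193 CPM per kb. The length merges all annotated exons of a gene, so this rank depends on the annotation. IARS1 had the highest mean CPM in NC, 1111 over 22418 exon bases, beside 426 over 2206 for PSAT1.

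PHGDH, which catalyses the first and committing step of serine synthesis, was at 678 and 743 CPM in the NC libraries, 688 and 698 in H1, 420.0 and 548 in H1R1, 417 and 377 in H1R6 and 462 in H1R18. No recovery library overlapped the NC libraries, and PHGDH was lowest at H1R6 (log2 fold change -0.84, SE 0.09, adjusted p = 3.67e-08). PSPH, the phosphatase of the last step, was at 69.3 and 80.9 CPM in the NC libraries, 77.5 and 80.2 in H1, 52.6 and 58.4 in H1R1, 45.2 and 33.7 in H1R6 and 26.7 in H1R18. It was lowest in the H1R18 library, which gave the largest fall among the 35 genes other than VARS1 (log2 fold change -1.49, SE 0.20, adjusted p = 2.46e-06). Its difference between H1R18 and H1R6 was not called (log2 fold change -0.56, SE 0.20, adjusted p = 0.0578). At H1R1 its call was lost without replicate 1 of H1R1 (adjusted p = 0.183) and without replicate 2 of NC (adjusted p = 0.187).

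MTHFD2, the mitochondrial dehydrogenase that handles one-carbon units from serine, was at 352 and 369.7 CPM in the NC libraries, 339 and 323 in H1, 207 and 267 in H1R1, 198 and 179.8 in H1R6 and 247 in H1R18. It fell at H1R6 (log2 fold change -0.94, SE 0.09, adjusted p = 1.35e-08) and was higher at H1R18 than at H1R6 (log2 fold change 0.39, SE 0.11, adjusted p = 0.0183). SHMT2, the mitochondrial serine hydroxymethyltransferase, fell to log2 fold changes of -0.46, -0.59 and -0.53 at H1R1, H1R6 and H1R18 (adjusted p = 0.000817, 0.000119 and 0.00382). SHMT1, its cytosolic counterpart, had -0.29, -0.21 and -0.32 and was not called at any time. Whether the mitochondrial and cytosolic enzymes differ in their change was not tested.

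**Figure D3:**
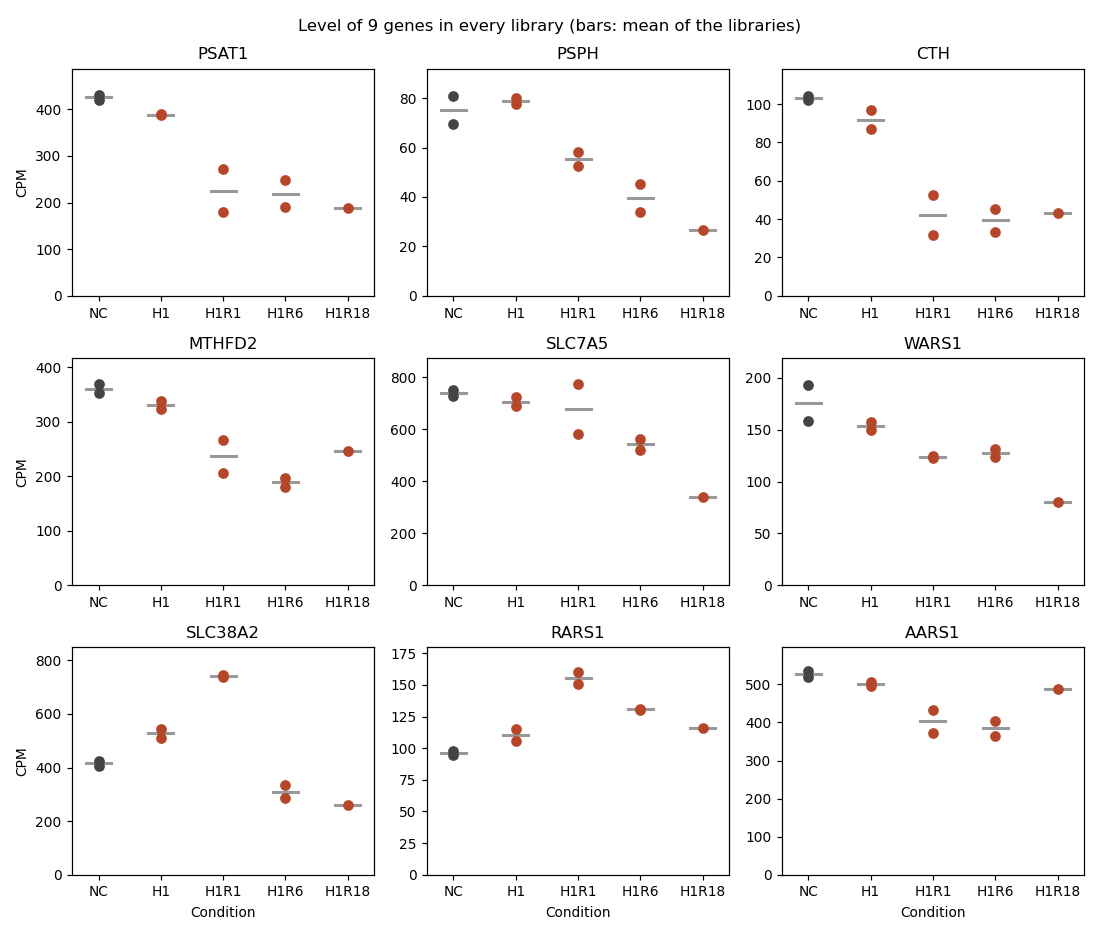
CPM of 9 genes in every library, by condition in time order, with grey bars at the mean of the libraries, dark points for NC and red points for heated cells. PSAT1, PSPH, CTH, MTHFD2 and WARS1 lie below NC at all recovery times, SLC38A2 peaks at H1R1 and lies below NC from H1R6, RARS1 lies above NC, and AARS1 returns towards NC at H1R18.

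CTH and GPT2 fell during recovery and GOT1 was not called. CTH, the cystathionase that makes cysteine from cystathionine, was at 102 and 104.1 CPM in the NC libraries, 87.0 and 96.8 in H1, 31.6 and 52.5 in H1R1, 45.2 and 33.4 in H1R6 and 43.1 in H1R18. The 5 recovery libraries lay far below the 4 libraries of NC and H1. CTH fell by 61.9% at H1R6 (log2 fold change -1.39, SE 0.15, adjusted p = 2.3e-07), and H1R1 was already below H1 (log2 fold change -1.16, SE 0.15, adjusted p = 5.05e-06). GPT2, the mitochondrial alanine transaminase, was at 139 and 134 CPM in the NC libraries, 126 and 129.5 in H1, 85.9 and 93.8 in H1R1, 76.7 and 74.1 in H1R6 and 71.8 in H1R18. Its libraries did not overlap between NC and any recovery time, and it was lowest at H1R18 (log2 fold change -0.93, SE 0.13, adjusted p = 4.49e-06). GOT1, the cytosolic aspartate transaminase, had log2 fold changes of -0.17, -0.26, -0.18 and 0.05 at H1, H1R1, H1R6 and H1R18, none of them called.

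Of the pair of proline synthesis genes, PYCR1 was called lower and ALDH18A1 was not, and the difference between them was not tested. PYCR1, the reductase of the last step, was at 160.1 and 163 CPM in the NC libraries, 174 and 171 in H1, 121 and 138 in H1R1, 105 and 104.1 in H1R6 and 152 in H1R18. It fell at H1R6 (log2 fold change -0.63, SE 0.09, adjusted p = 1.85e-05) and was higher at H1R18 than at H1R6 (log2 fold change 0.55, SE 0.11, adjusted p = 0.000872). The H1R18 library lay just below the NC libraries. ALDH18A1, which makes the precursor that PYCR1 finally reduces, ranged over 170.4 to 199 CPM over the 9 libraries and was not called against NC. PYCR1 shares 15.6% of its exon bases with an antisense gene and 14.1% with MYADML2, and reads that touched both genes were not counted.

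All 6 transporter genes fell at H1R6 and at H1R18. Their summed level was at 100.1% and 103.6% of the NC mean in the H1 libraries, 87.3% and 103.9% in H1R1, 71.6% and 67.6% in H1R6 and 56.4% in H1R18. SLC7A5, the light chain of the LAT1 exchanger for large neutral amino acids, was at 751 and 729 CPM in the NC libraries, 687 and 725 in H1, 581 and 772 in H1R1, 521 and 562 in H1R6 and 339 in H1R18. The H1R1 libraries spanned the NC libraries, and the H1R18 library lay lowest. SLC7A5 fell at H1R6 (log2 fold change -0.45, SE 0.08, adjusted p = 0.000582) and at H1R18 (log2 fold change -1.12, SE 0.11, adjusted p = 9.56e-09), and H1R18 was also below H1R6 (log2 fold change -0.68, SE 0.11, adjusted p = 4.44e-05). SLC3A2, the heavy chain that carries SLC7A5 to the membrane, was at 325 and 347 CPM in the NC libraries, 353 and 358 in H1, 280.2 and 296 in H1R1, 249 and 227 in H1R6 and 183 in H1R18. It was lower at H1R18 than at H1R6 (log2 fold change -0.38, SE 0.10, adjusted p = 0.00786), and its log2 fold change there against NC was -0.88.

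SLC38A2 took a different course. It encodes SNAT2, a sodium-coupled importer of small neutral amino acids, and was at 406 and 424 CPM in the NC libraries, 509 and 545 in H1, 738 and 746 in H1R1, 336 and 285 in H1R6 and 261 in H1R18. Both heated conditions up to H1R1 lay above both NC libraries, and all 3 later libraries lay below them. SLC38A2 rose at H1 (log2 fold change 0.34, SE 0.07, adjusted p = 0.00338) and at H1R1 (log2 fold change 0.84, SE 0.07, adjusted p = 4.42e-10). It fell below NC at H1R6 (log2 fold change -0.42, SE 0.07, adjusted p = 0.000358) and at H1R18 (log2 fold change -0.67, SE 0.10, adjusted p = 1.13e-05), and H1R6 was below H1R1 (log2 fold change -1.26, SE 0.07, adjusted p = 7.05e-14). The call at H1 was lost without replicate 2 of H1 (adjusted p = 0.0955), and that at H1R6 without replicate 2 of H1R6 (adjusted p = 0.0746).

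SLC38A1, the related SNAT1 importer, was not called higher at any time and was at 607 and 644 CPM in the NC libraries, 606 and 610.0 in H1, 441 and 557 in H1R1, 438 and 397 in H1R6 and 355 in H1R18. It was lowest at H1R18 (log2 fold change -0.82, SE 0.10, adjusted p = 1.42e-06). SLC1A5, the ASCT2 exchanger that carries glutamine, fell to log2 fold changes of -0.47, -0.51 and -0.65 at H1R1, H1R6 and H1R18. SLC7A1, the cationic amino acid transporter CAT1, fell to log2 fold changes of -0.32, -0.67 and -0.72 at the same times. The H1R1 call of SLC7A1 had an adjusted p = 0.00909, which became 0.411 without replicate 1 of H1R1 and 0.104 without replicate 1 of NC, and DESeq2 gave 0.139. Of the SLC1A5 exon bases, 23.4% lie opposite an antisense gene, and the counts used no strand.

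**Figure D4:**
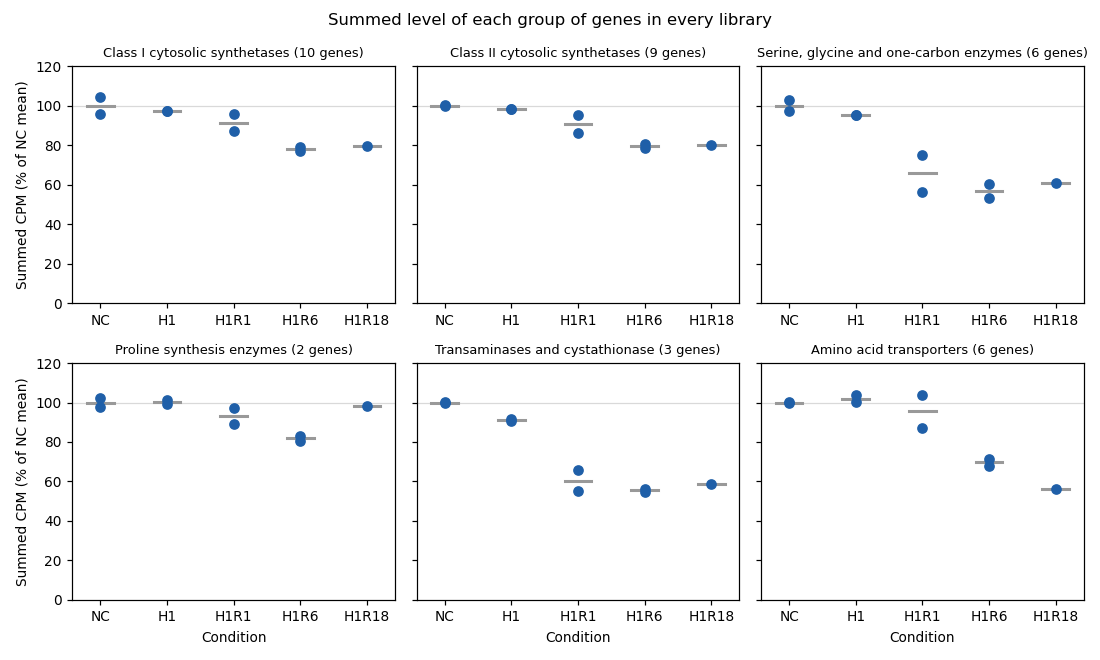
Summed CPM of each of the 6 groups of genes in every library, in percent of the mean of the NC libraries, by condition in time order (points, libraries; grey bars, means). At H1R1 the serine, glycine and one-carbon enzymes were at 56.4% and 75.2% while the transporters were at 87.3% and 103.9%. In the H1R18 library the transporters were lowest, at 56.4%.

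The synthetases included genes that fell, genes that rose and genes that were not called. Of 19, 0 were called at H1, 6 fell and 2 rose at H1R1, 11 fell and 1 rose at H1R6, and 8 fell and 0 rose at H1R18. The median log2 fold change of the 18 other than VARS1 was -0.33 at H1R6, and that of the 17 genes that are not synthetases was -0.59, a difference that was not tested. The summed level of the synthetases was at 79.6% and 77.6% of the NC mean at H1R6 and 79.9% in the H1R18 library. EPRS1 is the bifunctional glutamyl-prolyl enzyme of the complex. Among the synthetases it had the highest level per kilobase of merged exon (130.5 CPM per kb in NC), a rank that depends on the annotated length. It was at 647 and 742 CPM in the NC libraries, 650.3 and 648 in H1, 534 and 595 in H1R1, 502 and 506 in H1R6 and 476 in H1R18. No recovery library reached either NC library. EPRS1 fell at H1R6 (log2 fold change -0.46, SE 0.07, adjusted p = 4.98e-05) and at H1R18 (log2 fold change -0.54, SE 0.09, adjusted p = 8.26e-05).

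WARS1, the tryptophanyl enzyme, was at 158 and 193 CPM in the NC libraries, 157 and 149.8 in H1, 124 and 123 in H1R1, 131 and 124 in H1R6 and 79.8 in H1R18. The H1R1 and H1R6 libraries lay close together below NC, and the H1R18 library lay lower still. WARS1 fell at H1R18 (log2 fold change -1.14, SE 0.13, adjusted p = 2.01e-07), where it was also below H1R6 (log2 fold change -0.68, SE 0.13, adjusted p = 0.000417). MARS1, the methionyl enzyme, was at 328 and 324 CPM in the NC libraries, 327 and 343 in H1, 266 and 307 in H1R1, 211 and 202 in H1R6 and 188 in H1R18. Its H1R6 and H1R18 libraries lay below all the others, and it fell most at H1R18 (log2 fold change -0.79, SE 0.10, adjusted p = 2.12e-06). Of its exon bases 5.05% lie opposite DDIT3, and DDIT3 was at 20.8 CPM in the H1R18 library, against 7.14 and 6.78 CPM in NC.

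GARS1, the glycyl enzyme, was at 369 and 344 CPM in the NC libraries, 366 and 351 in H1, 245 and 321 in H1R1, 223 and 195 in H1R6 and 246 in H1R18. It fell most at H1R6 (log2 fold change -0.77, SE 0.09, adjusted p = 1.18e-06). TARS1, the threonyl enzyme, was at 320.0 and 311 CPM in the NC libraries, 328 and 347 in H1, 331 and 375 in H1R1, 268 and 277 in H1R6 and 197 in H1R18. Its H1R1 libraries lay above NC and its H1R18 library far below, and it was called only at H1R18 (log2 fold change -0.68, SE 0.10, adjusted p = 1.61e-05). CARS1 had few reads and was at 12.6 and 9.39 CPM in the NC libraries, 11.6 and 8.48 in H1, 16.0 and 12.2 in H1R1, 6.36 and 4.52 in H1R6 and 10.0 in H1R18. Its call at H1R6 (log2 fold change -1.03, SE 0.31, adjusted p = 0.0402) was lost in 7 of 18 alternatives, among them DESeq2 and either H1R6 library left out, with adjusted p up to 0.341.

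RARS1 and HARS1 rose. RARS1, the arginyl enzyme of the complex, was at 97.5 and 94.5 CPM in the NC libraries, 106 and 115 in H1, 160.0 and 151 in H1R1, 131 and 130.4 in H1R6 and 116 in H1R18. Every heated library lay above both NC libraries, and RARS1 rose at H1R1 (log2 fold change 0.70, SE 0.09, adjusted p = 1.36e-06) and at H1R6 (log2 fold change 0.44, SE 0.09, adjusted p = 0.00206). HARS1, the histidyl enzyme, was at 85.7 and 87.2 CPM in the NC libraries, 93.9 and 97.1 in H1, 119 and 109.5 in H1R1, 90.4 and 95.1 in H1R6 and 79.0 in H1R18. It rose at H1R1 (log2 fold change 0.41, SE 0.10, adjusted p = 0.00334), a call that was lost without replicate 1 of H1R1 (adjusted p = 0.0652). HARS1 shares 7.70% of its exon bases with WDR55 on the other strand. In the multi-synthetase complex, EPRS1, IARS1, LARS1 and MARS1 of the 7 synthetase genes fell at H1R6, RARS1 rose, and KARS1 and QARS1 had log2 fold changes of -0.05 and -0.26 with adjusted p = 0.835 and 0.0554. Of the 12 synthetase genes outside it, 7 fell at H1R6 and 0 rose.

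Among the remaining synthetases, AARS1, SARS1 and LARS1, for alanine, serine and leucine, fell at H1R1 and H1R6 and were closer to NC at H1R18. AARS1 was at 534 and 521 CPM in the NC libraries, 495 and 507 in H1, 372 and 433 in H1R1, 403 and 365 in H1R6 and 489 in H1R18. Its H1R18 library was above both H1R6 libraries (log2 fold change 0.35, SE 0.09, adjusted p = 0.00876). SARS1 was higher at H1R18 than at H1R6 by 0.35 (adjusted p = 0.0356) and LARS1 by 0.38 (adjusted p = 0.00253). IARS1, NARS1 and YARS1, for isoleucine, asparagine and tyrosine, were first called lower at H1R6. The IARS1 level was 879.6 and 832 CPM at H1R6, against 1062 and 1160 CPM in NC. The H1R6 calls of NARS1 and YARS1 had adjusted p = 0.0207 and 0.0173 and were lost with 1 library fewer in several cases, up to an adjusted p of 0.195 and 0.197. FARSA and FARSB, the subunits of the phenylalanyl enzyme, were not called against NC. FARSB at H1 was at 87.7 and 93.4 CPM, against 109 and 111 CPM in NC (log2 fold change -0.28, SE 0.10, adjusted p = 0.0846).

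Between neighbouring times from H1 on, falls outnumbered rises until H1R6 and not after it. At H1R1 against H1, 3 of the 36 rose and 16 fell, where 6.35% and 5.08% of all tested genes did. Of genes whose log2 CPM averaged 5 or more, 15.3% rose and 7.92% fell. The 16 that fell were all 5 called serine and one-carbon enzymes, CTH, GPT2, PYCR1, 4 synthetases and 4 transporters. Without replicate 1 of H1R1 only 4 fell, and without replicate 1 or 2 of H1 the counts were 10 and 8. At H1R6 against H1R1, 0 rose and 16 fell, where 6.43% and 8.93% of all tested genes did. Of genes whose log2 CPM averaged 5 or more, 8.43% rose and 19.5% fell. At an unadjusted p under 0.05 and with DESeq2, 0 of the 36 were higher as well. The 16 became 6 without replicate 2 of H1R1, 5 without replicate 2 of H1R6 and 7 with library-size scaling. At H1R18 against H1R6, 6 rose (AARS1, LARS1, MTHFD2, PYCR1, QARS1 and SARS1) and 6 fell (FARSA, NARS1, SLC3A2, SLC7A5, TARS1 and WARS1). Of all tested genes 6.28% rose and 7.65% fell, and of those whose log2 CPM averaged 5 or more 12.0% and 16.4% did. The 6 that rose became 3 without replicate 2 of H1R6, and the 6 that fell became 10 with no filter on low counts.

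**Figure D5:**
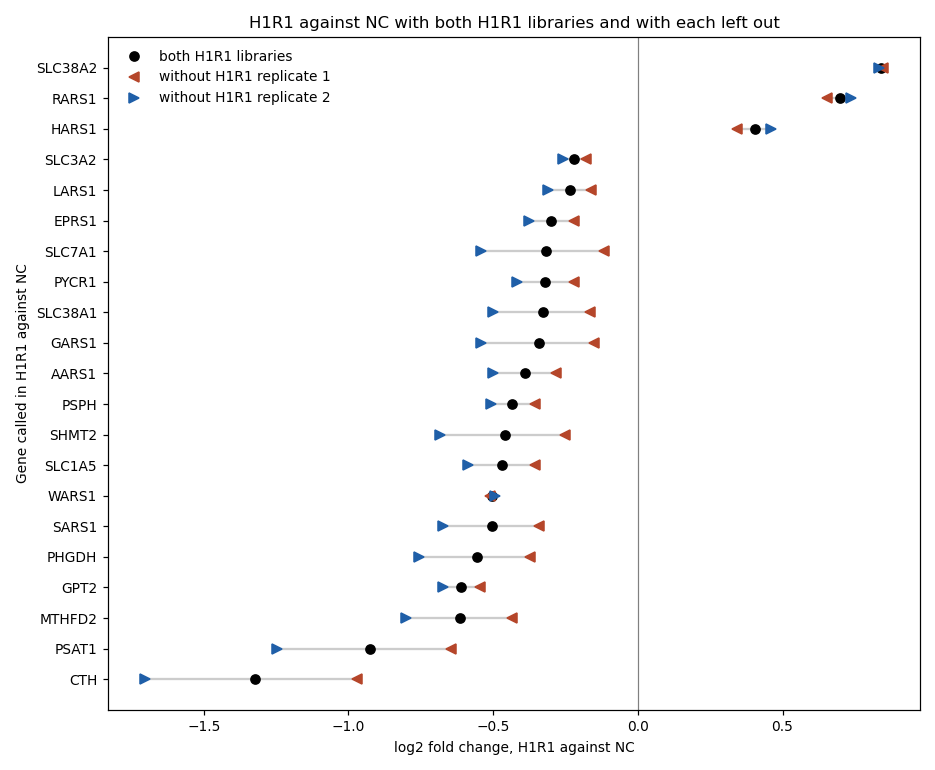
Log2 fold change at H1R1 against NC for the 21 genes called there, with both H1R1 libraries (black), without replicate 1 (red) and without replicate 2 (blue). The direction of all 21 was kept with either library left out, and most falls were smaller without replicate 1, as for CTH (-0.97 without it and -1.32 with both).

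Genes of related function that are not among the 36 were counted from lists. The mitochondrial synthetases charge the tRNAs of the organelle. Of 17, 16 were tested, and 0 rose and 1, 3, 2 and 1 fell at H1, H1R1, H1R6 and H1R18. Of all tested genes, 3.43%, 10.7%, 3.0% and 4.58% rose and 1.77%, 9.53%, 4.03% and 6.43% fell at these times. VARS2 had 0 counts in every library and lies on chromosome 6 at 30914205. PARS2, for proline, was at 7.49 and 10.6 CPM at H1, against 25.7 and 18.8 CPM in NC (log2 fold change -1.31, SE 0.24, adjusted p = 0.000715). TARS2, for threonine, fell at H1R1 (log2 fold change -0.53, SE 0.12, adjusted p = 0.00148). Of 6 scaffold and further cytosolic synthetase genes, 0 were called at H1, 1 fell at H1R1, 0 were called at H1R6 and 1 fell at H1R18. The shares of all tested genes beside them are those given for the mitochondrial synthetases. AIMP2, a scaffold protein of the complex, was at 11.8 CPM in the H1R18 library, against 27.9 and 36.5 CPM in NC (log2 fold change -1.44, SE 0.27, adjusted p = 0.000432). SEPSECS, which finishes the charging of selenocysteine tRNA, fell at H1R1 (log2 fold change -1.01, SE 0.24, adjusted p = 0.00241) and was not called at H1R6 (log2 fold change 0.08).

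Further amino acid transporters and enzymes were counted in the same way. Of 11 other transporters 10 were tested, and 4, 4 and 3 fell and 0, 0 and 1 rose at H1R1, H1R6 and H1R18. Of all tested genes, 9.53%, 4.03% and 6.43% fell and 10.7%, 3.0% and 4.58% rose at the same times. SLC7A11, the cystine importer of system xc-, was at 275 and 313 CPM in the NC libraries, 264 and 254 in H1, 84.9 and 128 in H1R1, 94.1 and 69.5 in H1R6 and 85.5 in H1R18. All 5 recovery libraries lay below the NC and H1 libraries, and it fell most at H1R6 (log2 fold change -1.84, SE 0.13, adjusted p = 9.74e-12). SLC6A9, the glycine transporter GlyT1, was at 16.4 CPM in the H1R18 library, against 61.8 and 58.5 CPM in NC (log2 fold change -1.87, SE 0.24, adjusted p = 1.33e-06). Of 15 other enzymes, 4, 6 and 3 fell and 1, 0 and 0 rose at H1R1, H1R6 and H1R18, beside the same shares of all tested genes. ASS1, which makes argininosuccinate for arginine synthesis, was at 68.3 and 76.2 CPM in the NC libraries, 67.6 and 59.9 in H1, 34.8 and 40.3 in H1R1, 33.2 and 28.9 in H1R6 and 73.1 in H1R18. It fell at H1R6 (log2 fold change -1.22, SE 0.14, adjusted p = 3.41e-07), and its H1R18 library lay within the NC values. BCAT1, the cytosolic branched-chain transaminase, fell to log2 fold changes of -0.50, -0.69 and -0.67 at H1R1, H1R6 and H1R18.

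The regulators of the integrated stress response moved in both directions. Of 18 genes on that list, 3 rose and 3 fell at H1, 5 rose and 6 fell at H1R1, 0 rose and 11 fell at H1R6, and 5 rose and 6 fell at H1R18. Of all tested genes, 3.43% rose and 1.77% fell at H1, and 10.7% rose and 9.53% fell at H1R1. At H1R6, 3.0% of all tested genes rose and 4.03% fell, and the shares at H1R18 are given above. Whether the list differed from all tested genes was not tested. ATF4, named here because its binding sequence was searched, was at 587 and 572 CPM in the NC libraries, 584 and 563 in H1, 399.5 and 481 in H1R1, 388 and 318 in H1R6 and 387 in H1R18. Its transcript level was close to NC at H1 and lower in all 5 recovery libraries, and it fell at H1R1 (log2 fold change -0.40, SE 0.08, adjusted p = 0.000745), H1R6 (log2 fold change -0.71, SE 0.08, adjusted p = 5.93e-07) and H1R18 (log2 fold change -0.58, SE 0.10, adjusted p = 0.000285). ATF4 protein was not measured in these libraries, and its part in the other changes was not tested. SESN2, a sestrin that restrains mTORC1 when leucine is short, was at 196 and 196 CPM in the NC libraries, 135 and 141 in H1, 119 and 157 in H1R1, 85.8 and 59.5 in H1R6 and 62.6 in H1R18. It fell already at H1 (log2 fold change -0.51, SE 0.12, adjusted p = 0.0062). ATF3, a stress-induced factor of the same family, was at 43.0 and 40.7 CPM in the NC libraries, 112 and 113 in H1, 83.5 and 114 in H1R1, 28.3 and 27.5 in H1R6 and 96.0 in H1R18. It was above NC at H1, H1R1 and H1R18 and below NC at H1R6 (log2 fold change -0.59, SE 0.15, adjusted p = 0.0106).

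A list of genes through which mTORC1 senses amino acids was counted last. Of 18, 0 were called at H1, 1 rose and 3 fell at H1R1, 1 rose and 0 fell at H1R6, and 1 rose and 0 fell at H1R18. Of all tested genes 10.7% rose and 9.53% fell at H1R1, and 3.0% rose at H1R6 and 4.58% at H1R18. SEH1L, a subunit shared by the GATOR2 complex and the nuclear pore, was at 103 and 109 CPM at H1R6, against 70.2 and 62.6 CPM in NC (log2 fold change 0.67, SE 0.11, adjusted p = 6.91e-05). DEPDC5, a subunit of GATOR1, was at 15.04 and 11.5 CPM at H1R1, against 29.2 and 28.7 CPM in NC (log2 fold change -1.11, SE 0.20, adjusted p = 0.000162).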

How the data were processed

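The authors deposited 1 table of counts per gene for 9 libraries. Their notes and file header name cutadapt 4.1, HISAT2 2.2.1 and featureCounts 2.0.2 with the Ensembl annotation of GRCh38, and list DESeq2 1.38.3. Each read of a pair was counted, strand was not used, and reads with several alignments or touching several genes were left out. Leaving these out lowers the counts of genes with near-identical copies or overlapping neighbours.

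Gene names came from a name table (60463 of 60664 IDs matched, 99.7%). The members and lists were chosen with earlier results of these data known. Low genes were removed with filterByExpr (minimum count 10, minimum total 15), counts were scaled by TMM, and 1 quasi-likelihood model was fitted over all libraries with edgeR 4.0.16 in R 4.3.3. Benjamini-Hochberg adjustment ran over 21139 genes. The SE is the log2 fold change divided by the square root of F. The study's methods name no test for the RNA-seq counts. Counts between libraries of a condition, halved to read pairs, had a chi-square per degree of freedom of 1.60 to 2.15, so no library was a copy of another.

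Values in every library are given for the 14 members with the largest called change against NC and no overlap with NC, for the member of each role with the highest level per kilobase over the 9 libraries, and for genes a result turns on. From each further list the 2 tested genes with the smallest adjusted p were named. Further genes were named after their values were seen. The 18 alternatives changed the scaling (RLE, upper quartile, library size), the low-count filter, the libraries fitted (each left out in turn among them), the counting unit (halved counts), the tool (DESeq2 1.42.0) or the model (a replicate block). A planned search for synthetase signature letters in proteins was not run. Matplotlib 3.10.9, pandas 2.3.3 and Python 3.11.15 were used.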

Additional observations from a re-analysis of the deposited data

Results flagged for a closer look

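The change against NC differed between neighbouring times by at least 1 on the log2 scale in 3 genes, each by edgeR's test of the difference between those times. CTH was -1.16 at H1R1 against H1, with every H1R1 library below every H1 library. SLC38A2 was -1.26 at H1R6 against H1R1, at 336 and 285 CPM at H1R6 and 738 and 746 CPM at H1R1. CARS1 was -1.39 at H1R6 against H1R1, from 36 and 26 counts at H1R6 and 96 and 52 counts at H1R1. In all, 28 of the 36 genes had a called difference between neighbouring times from H1 on. Neither this count nor that of the 3 genes was made over all tested genes. The shares of all tested genes called at each single step are given above. No condition has enough libraries to look for a single outlying one.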

How the results depend on the processing

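Of the 69 calls of the 36 genes against NC, 51 were kept in every one of the 18 alternatives (17 for H1R18), and no called value changed sign. They were 11 of 21 calls at H1R1, 20 of 26 at H1R6, 20 of 21 at H1R18 and 0 of 1 at H1. With 1 library left out in turn, the genes called numbered 0 to 1 higher at H1 against NC, 9 to 21 lower at H1R1 against NC, 4 to 20 lower at H1R1 against H1, 5 to 17 lower at H1R6 against H1R1, and 3 to 6 higher at H1R18 against H1R6. Library-size scaling gave 7 lower at H1R6 against H1R1, and no filter on low counts gave 10 lower at H1R18 against H1R6. The cause was not tested. The other counts stayed within 1.5 times.

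Replicate numbers did not pair the libraries: same-numbered deviations correlated at -0.0012 to 0.0175 over all genes. With the replicate number as a block, 18 genes were called lower at H1R1, 25 at H1R6 and 21 at H1R18 against NC, and 15 at H1R6 against H1R1. No call against NC changed with the block.

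The limits are few libraries and depth. The smallest called change against NC was -0.22, of SLC3A2 at H1R1, and it was lost in 7 of 18 alternatives. With at most 2 libraries a condition, and 1 at H1R18, a gene that was not called is not shown to be unchanged. VARS1 and CARS1 had too few counts for a firm level.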

Other observations

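ASNS, the asparagine synthetase, was looked at after its values were seen. It was at 24.7 and 24.5 CPM in the NC libraries, 17.1 and 17.3 in H1, 13.4 and 20.9 in H1R1, 17.3 and 6.43 in H1R6 and 36.4 in H1R18. The H1R6 libraries were far apart, and H1R18 was above H1R6 (log2 fold change 1.62, SE 0.32, adjusted p = 0.000646). MTHFD1L, the mitochondrial formate producer that works beside SHMT2 and MTHFD2, was also chosen after its values were seen. It fell to -0.33, -0.62 and -0.70 on the log2 scale at H1R1, H1R6 and H1R18 (adjusted p = 0.0134, 4.91e-05 and 0.000204).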
